A study of Mus musculus with 4 samples.

Results

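The tumour suppressor p53, encoded in the mouse by Trp53, and genes that p53 is known to activate were examined in hair follicle stem cells with and without the T-box transcription factor Tbx1. The members were a list of 10 genes, Trp53, Mdm2, Ccng1, Trp53inp1, Sesn1, Sesn2, Gadd45a, Btg2, Perp and Plk2, and a probe set counted when the platform annotation gave it exactly 1 gene symbol and that symbol was on the list. 9 of the 10 genes had such probe sets, 17 of the 22690 on each array. No probe set was named for Trp53, so its level was not analysed here.

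RNA came from cells of female mouse back skin, sorted for YFP (a fluorescent protein), CD34 and integrin α6. CD34 with integrin α6 marks stem cells of the bulge, the niche of the resting follicle. The 4 Affymetrix arrays comprised 2 Tbx1 conditional knockout (cKO) samples and 2 wild type (WT) samples, all on a mixed CD1/C57BL/6 background at about postnatal day 60, and 1 sample of each genotype carried the number set 1 and the other set 2. The protocol describes wax depilation of the mid-dorsal skin 48 h before harvest for every sample, whereas a second label calls both set 2 samples activated and both set 1 samples quiescent, so the sets are named here by number. The Cre driver, the alleles and the number of animals behind a sample were not stated in the labels. P-values therefore measure only how these samples vary, and that variation may be technical. The 2 samples of a genotype also come from different sets, so their spread includes any difference between the sets.

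p53 is a transcription factor that is kept scarce in unstressed cells because Mdm2, itself a p53 target, marks it for degradation. DNA damage and other stresses stabilise it, and it then raises genes that halt the cell cycle, limit growth signalling and oxidative damage, or lead to cell death. Several of these genes also answer to other regulators: Sesn1, Trp53inp1 and Cdkn1a to FoxO factors, Btg2, Gadd45a and Plk2 to growth factor and stress signals, and Perp to the epidermal p53 relative p63. In p53 biology the level of the Trp53 transcript is in any case a poor guide to p53 activity, which is set largely at the protein.

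The arrays had median log2 intensities of 6.36 to 6.38. Tbx1 read 8.88 and 9.54 on the cKO arrays of set 2 and set 1, against 10.37 and 10.53 on the WT arrays of set 2 and set 1. All 9 bulge markers lay above the dim limit, the log2 intensity of 5.40 under which genes were not tested, on all 4 arrays. Some arrays stood apart. The WT set 2 array read 12.35 for the nuclear RNA Malat1 against 9.80 to 10.56 on the others, and the 3′ minus 5′ difference of the Dap control was 2.95 on the cKO set 1 array against 1.74 to 1.82 on the others. The main results therefore also carry the difference of the remaining pair of arrays, cKO set 2 minus WT set 1, called the cross-set difference here, which mixes genotype with set.

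Setting cKO against WT addresses which of these genes differ when Tbx1 is removed. For Sesn1 and Trp53inp1, both cKO arrays read above both WT arrays, with mean differences of 0.92 and 1.00 on the log2 scale, or 1.89-fold and 1.99-fold. The other members differed by less, from -0.07 for Gadd45a to 0.45 for Ccng1. Of them, Mdm2 and Perp also had both cKO arrays above both WT arrays, so 4 of the 9 genes did, against 26.7% of all genes. None of the 9 genes passed limma's test over 8031 genes at an adjusted p of 0.05, a test that called 7 genes in all, or 0.0872%. Without adjustment, limma's p from the fit across all genes was under 0.05 for 2 members, Sesn1 and Trp53inp1, and for 14.2% of all genes. The smallest p that an exact permutation of 2 against 2 arrays can give is 0.333. In bulk RNA from sorted cells, fewer cells of a kind and less RNA per cell cannot be told apart.

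**Figure D1:**
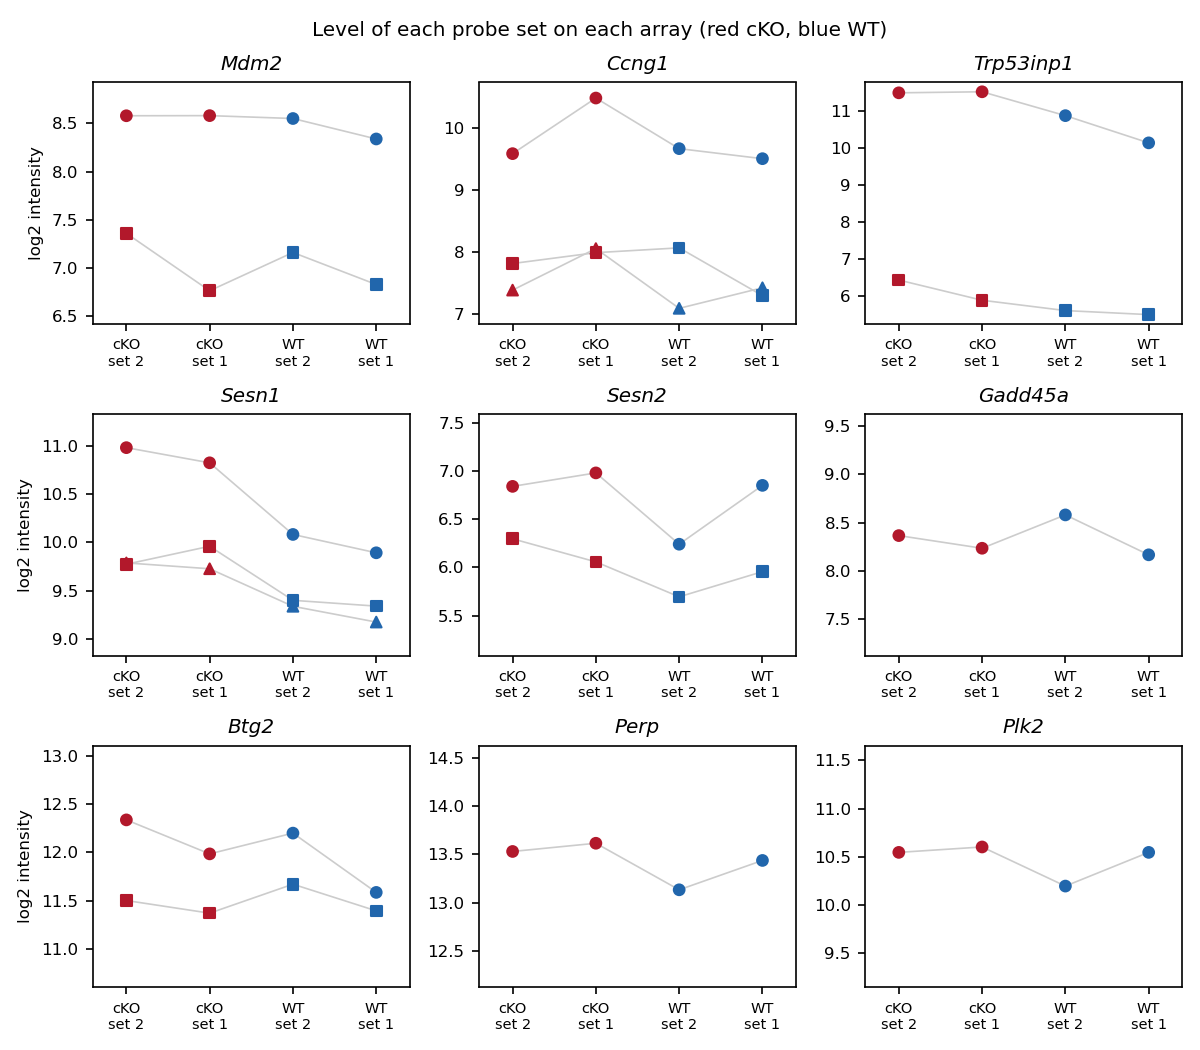
Log2 intensity of each of the 17 probe sets on each of the 4 arrays, 1 panel per gene, with red points for cKO and blue points for WT. Circles, squares and triangles are the gene's probe sets from the highest mean level to the lowest, each panel has its own scale, and the cKO points of all 3 Sesn1 probe sets and both Trp53inp1 probe sets lie above the WT points.

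Sestrins limit growth signalling through the kinase complex mTORC1 and protect against oxidative damage. Sesn1 had 3 probe sets. The one with the highest mean read 10.98 (set 2) and 10.82 (set 1) on the cKO arrays, against 10.08 (set 2) and 9.89 (set 1) on the WT arrays. The second read 9.77 (set 2) and 9.96 (set 1) in cKO, against 9.40 (set 2) and 9.34 (set 1) in WT. The remaining one read 9.79 (set 2) and 9.73 (set 1) in cKO, against 9.34 (set 2) and 9.17 (set 1) in WT. On every one of these probe sets both cKO arrays lay above both WT arrays. For the first, the means were 10.90 ± 0.11 in cKO and 9.99 ± 0.13 in WT (SD, n = 2 each), and the difference was 0.92 (SE 0.17, 95% interval 0.50 to 1.33, limma adjusted p = 0.162). It was nearly equal within set 2, at 0.90, and within set 1, at 0.93. The other probe sets gave smaller differences, both of 0.50, with 0.37 and 0.45 within set 2 and 0.62 and 0.55 within set 1. The cross-set differences were 1.09, 0.43 and 0.61 in the same order of probe sets. Of all genes tested, 2.13% had a mean difference at least as high as Sesn1, and 0.946% had a smaller within-set difference at least as high as its own.

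Sesn2, the other measured sestrin of the list, was dimmer. Its brighter probe set read 6.84 (set 2) and 6.98 (set 1) in cKO, against 6.24 (set 2) and 6.85 (set 1) in WT. The groups overlapped slightly there, since the WT set 1 array lay just above the cKO set 2 array. Its second probe set read 6.30 (set 2) and 6.06 (set 1) in cKO, against 5.70 (set 2) and 5.96 (set 1) in WT, without overlap. The difference of the brighter probe set was 0.36 (SE 0.24, limma adjusted p = 0.539), with 0.60 within set 2, where 9.41% of all genes passed a 1.5-fold excess in cKO, and 0.13 within set 1. The cross-set difference was -0.01, and the WT set 2 array was the lowest of the 4.

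Trp53inp1 encodes a stress-induced nuclear and autophagy protein that also acts back on p53. Its bright probe set read 11.48 (set 2) and 11.51 (set 1) on the cKO arrays, against 10.86 (set 2) and 10.13 (set 1) on the WT arrays. The cKO arrays were almost equal, and the spread lay between the WT arrays. Means were 11.49 ± 0.020 in cKO and 10.50 ± 0.52 in WT (SD, n = 2 each), and the difference was 1.00 (SE 0.26, 95% interval 0.35 to 1.64, limma adjusted p = 0.237). It was 0.62 within set 2 and 1.38 within set 1, with a cross-set difference of 1.35. The second probe set, near the dim limit, read 6.44 (set 2) and 5.89 (set 1) in cKO, against 5.61 (set 2) and 5.50 (set 1) in WT. Here the larger gap lay in set 2, at 0.82, with 0.39 within set 1, so both probe sets were higher in cKO but in different sets by more. Of all genes tested, 1.74% had a mean difference at least as high as Trp53inp1.

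Sesn1 and Trp53inp1 were the 2 members, of 9, that read at least 1.5-fold higher in cKO within both sets, where 3.04% of all genes did so, and 0 members read at least 1.5-fold lower within both sets, against 1.64% of all genes. For Trp53inp1 the margin in set 2 was thin, at 1.53-fold. When the model held the set as a block, limma's adjusted p was 0.0683 for Sesn1 and 0.0962 for Trp53inp1, and that model called 0 members against 1.03% of all genes. With a gene's probe sets averaged, 1 member and not 2 passed the 1.5-fold rule, since Sesn1 then fell short of it within set 2.

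**Figure D2:**
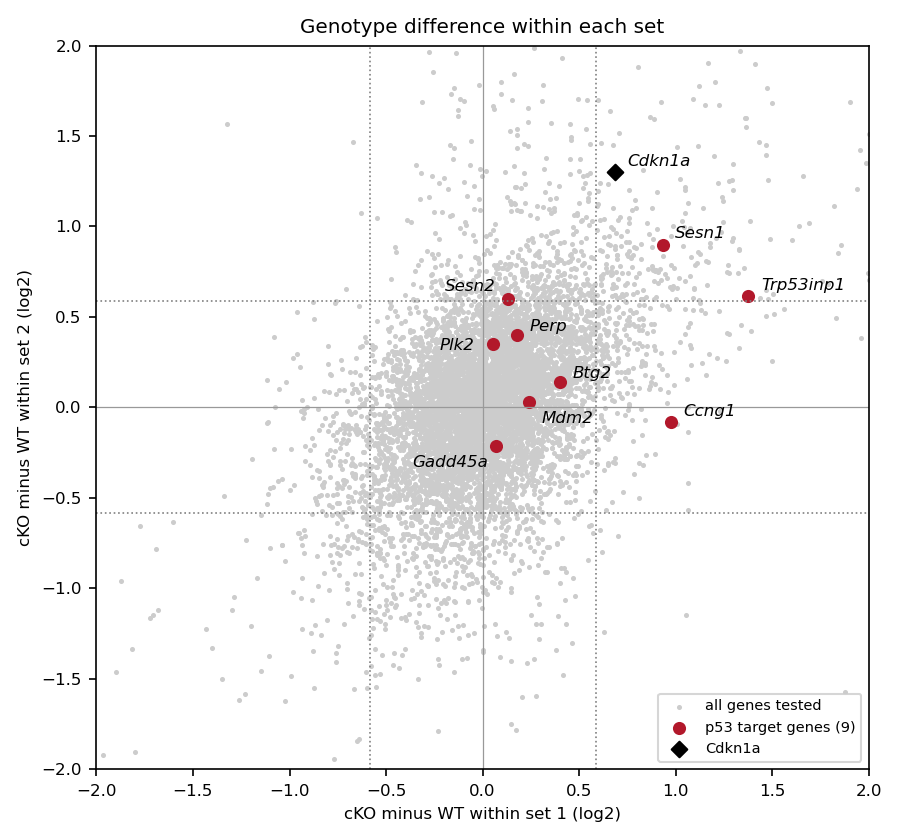
Difference between cKO and WT within set 1 (horizontal) and within set 2 (vertical), in log2 units, for all genes tested (grey), the 9 measured members (red) and Cdkn1a (black), with dotted lines at 1.5-fold and 58 genes outside the plotted range. Sesn1, Trp53inp1 and Cdkn1a lie in the upper right field beyond both lines, and Ccng1 lies beyond the line in set 1 only.

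Cdkn1a, the p53-induced inhibitor of cyclin-dependent kinases, was no member of the list. Of 19 further targets tested, it was the only 1 that differed by 1.5-fold in the same direction within both sets. Of all genes, 3.04% were higher and 1.64% lower in cKO by that rule. It read 11.26 (set 2) and 11.48 (set 1) in cKO, against 9.96 (set 2) and 10.79 (set 1) in WT, and both cKO arrays lay above both WT arrays. The difference was 0.99 (SE 0.29, limma adjusted p = 0.262), with 1.30 within set 2 and 0.69 within set 1. The cross-set difference was 0.47.

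The promoter windows of Sesn1 and Cdkn1a are shown because both genes read higher in cKO within both sets and both are known p53 targets. The sequences are from RefSeq (assembly GRCm38.p6), which gives each gene 2 transcription starts, and run 5′ to 3′ on the gene's strand over 250 bases before and 50 after a start. Which start the probe sets report was not determined. Capitals mark matches to the p53 response element decamer, a motif of 10 letters that reads the same on both strands. The plus-strand windows are chr10:41810324-41810623 and chr10:41887189-41887488 for Sesn1 and chr17:29090729-29091028 for the upstream Cdkn1a start.
Sesn1 upstream start: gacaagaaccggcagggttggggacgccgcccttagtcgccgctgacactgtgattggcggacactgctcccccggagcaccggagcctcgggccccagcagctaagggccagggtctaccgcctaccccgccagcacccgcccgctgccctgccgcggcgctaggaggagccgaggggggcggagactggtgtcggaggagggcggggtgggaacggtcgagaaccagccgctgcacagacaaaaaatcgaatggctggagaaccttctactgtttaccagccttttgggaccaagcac
Sesn1 downstream start: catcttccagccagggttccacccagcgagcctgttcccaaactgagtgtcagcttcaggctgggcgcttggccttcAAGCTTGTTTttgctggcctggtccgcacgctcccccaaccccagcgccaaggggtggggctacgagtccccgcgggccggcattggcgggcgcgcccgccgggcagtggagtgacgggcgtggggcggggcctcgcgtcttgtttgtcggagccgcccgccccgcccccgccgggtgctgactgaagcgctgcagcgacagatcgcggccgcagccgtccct
Cdkn1a upstream start: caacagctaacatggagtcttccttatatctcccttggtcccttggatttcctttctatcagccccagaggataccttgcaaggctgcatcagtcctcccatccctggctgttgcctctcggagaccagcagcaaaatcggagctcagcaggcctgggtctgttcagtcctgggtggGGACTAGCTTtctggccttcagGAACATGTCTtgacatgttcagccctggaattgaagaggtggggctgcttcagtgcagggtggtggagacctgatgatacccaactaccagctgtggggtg

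The downstream Sesn1 window held 1 decamer, AAGCTTGTTT, ending 163 bases before the start, and the upstream window held 0. The Cdkn1a window shown held 2, GGACTAGCTT and GAACATGTCT, with 12 bases between them. They counted as a full element because the rule let at most 13 bases separate decamers. Only exact matches to RRRCWWGYYY were marked (R is A or G, W is A or T, Y is C or T). The bases directly after GAACATGTCT, tgacatgttc, miss this pattern at their first base only and were not counted. The window of its downstream start, not printed, held 0. A decamer stood in 8.36% of the 32851 windows of this length in the table, and a full element in 0.0731%. Among members, 8 genes had 9 windows, of which 5 held a decamer and 0 a full element. Trp53inp1 and Perp had no window and were not searched. Those of the measured genes other than Sesn1 were GAACTTGCCT in Mdm2, GGGCAAGCCT in Ccng1 and GGGCTAGCCC in Gadd45a, which lay 176, 175 and 30 bases before the start. The measured genes Btg2, Plk2 and Sesn2 had windows without one. The remaining decamer was in the window of Trp53, which was not measured. The members were listed as known p53 targets, so their share of windows with a decamer is a description and no test. Only 250 bases before and 50 after a start were searched, so elements elsewhere in a gene, such as in introns, were not sought. A window without a match therefore does not show that its gene lacks one. A match describes letters and not binding.

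Mdm2 and Ccng1 act in the feedback that restrains p53. Mdm2, the ubiquitin ligase of p53, read 8.58 on both cKO arrays, against 8.55 (set 2) and 8.34 (set 1) on the WT arrays. The cKO arrays lay above the WT arrays by little, and the difference was 0.14 (SE 0.16, 95% interval -0.27 to 0.54, limma adjusted p = 0.752). Its dimmer probe set read 7.36 (set 2) and 6.77 (set 1) in cKO, against 7.16 (set 2) and 6.83 (set 1) in WT, with overlap. The interval reaches beyond 0 on both sides, which does not show that the genotypes were alike.

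Ccng1 encodes cyclin G1, which recruits the phosphatase PP2A to Mdm2. Its brightest probe set read 9.58 (set 2) and 10.47 (set 1) in cKO, against 9.66 (set 2) and 9.50 (set 1) in WT. The cKO set 1 array stood alone, and the other 3 arrays lay within 0.16 of each other. The difference was -0.08 within set 2 and 0.98 within set 1, with a mean of 0.45 (SE 0.31, limma adjusted p = 0.555). Another probe set read 7.81 (set 2) and 7.99 (set 1) in cKO, against 8.06 (set 2) and 7.30 (set 1) in WT. The remaining one read 7.39 (set 2) and 8.05 (set 1) in cKO, against 7.09 (set 2) and 7.42 (set 1) in WT. Within set 1 all 3 probe sets were at least 1.5-fold higher in cKO, as 6.34% of all genes were, at 0.98, 0.69 and 0.63, and within set 2 they gave -0.08, -0.25 and 0.29. The cKO set 1 array is also the one with the high 3′ minus 5′ control difference, and the part of this in the Ccng1 values was not tested.

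Gadd45a, Btg2 and Plk2 slow or arrest the cell cycle or respond to stress. Gadd45a, a stress sensor that acts on cyclin B1-dependent kinase and on mitogen-activated kinases, read 8.37 (set 2) and 8.23 (set 1) in cKO, against 8.58 (set 2) and 8.17 (set 1) in WT. Both cKO values lay between the WT values, and the difference was -0.07 (SE 0.20, 95% interval -0.56 to 0.41, limma adjusted p = 0.898). Btg2, an antiproliferative partner of the mRNA deadenylation machinery, read 12.34 (set 2) and 11.98 (set 1) in cKO, against 12.20 (set 2) and 11.59 (set 1) in WT. Its groups overlapped, with a difference of 0.27 (SE 0.26, limma adjusted p = 0.677). A second Btg2 probe set read 11.50 (set 2) and 11.37 (set 1) in cKO, against 11.67 (set 2) and 11.39 (set 1) in WT, and was the only one of the 17 that read lower in cKO within both sets.

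Plk2, a polo-like kinase of the stress response and of centriole duplication, read 10.55 (set 2) and 10.60 (set 1) in cKO, against 10.20 (set 2) and 10.55 (set 1) in WT. The WT set 2 array was the low one and the other 3 were close together, so the difference was 0.35 within set 2 and 0.06 within set 1, with a mean of 0.20 (SE 0.18, limma adjusted p = 0.662). Btg2, Gadd45a and Plk2 are also early response genes of dissociated cells. The 18 genes of an immediate early list had a median difference of 0.29, with 0.47 within set 2 and 0.02 within set 1, and a cross-set median of 0.07. Of these 18, 10 read higher and 1 lower in cKO within both sets, against 35.8% and 27.9% of all genes. Limma's test, which called 0.0872% of all genes, called 0 of the 18. An unadjusted p under 0.05 was found for 3 of the 18, against 14.2% of all genes. The part of an early response in the values of Btg2, Gadd45a and Plk2 was not tested.

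Perp encodes a membrane protein of desmosomes that is needed for p53-driven cell death in some cells and is a target of p63 in epidermis. Its probe set read 13.53 (set 2) and 13.62 (set 1) in cKO, against 13.13 (set 2) and 13.44 (set 1) in WT. The groups did not overlap, and the difference was 0.29 (SE 0.18, 95% interval -0.15 to 0.73, limma adjusted p = 0.517), or 1.22-fold. The WT set 2 array was the lowest, and the cross-set difference was 0.09.

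Across all 17 probe sets, 12 read higher in cKO within both sets, 1 lower and 4 differed in sign between the sets, and 0 passed limma's test of each probe set on its own, which called 0.0559% of all probe sets. An unadjusted p under 0.05 was found for 5 of the 17, the 3 of Sesn1 and the 2 of Trp53inp1, against 12.1% of all probe sets. Over all probe sets tested, 31.6% read higher in cKO within both sets, and the shares lower or of opposite signs were counted only by gene. 8 of the 17 had both cKO arrays above both WT arrays, against 23.4% of all probe sets, and 0 had both below, against 21.4%. Probe sets of 1 gene share its transcript and are not independent, and these 8 came from Sesn1, Trp53inp1, Sesn2, Mdm2 and Perp. Counted by gene, 7 of 9 read higher in cKO within both sets, against 35.8% of all genes, 0 read lower, against 27.9%, and 2 had opposite signs, against 36% of all genes. Both cKO arrays lay above both WT arrays for 4 of the 9 genes, against 26.7% of all genes, and below them for 0, against 19.9%. The median difference over the 9 genes was 0.29, with 0.35 within set 2 and 0.24 within set 1, and a cross-set median of 0.20. Over all genes tested the median was 0.03. The members were chosen with earlier results of these data known, so these shares are a description and no test of the list.

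Further p53 targets and p53 regulators were read from lists of their own. Of 24 further targets, 20 had a named probe set and 19 were bright enough to test. Of these 19, 10 read higher in cKO within both sets, 3 lower and 6 in opposite directions. The shares of all genes were 35.8%, 27.9% and 36%. The median of the 19 was 0.25, with 0.09 within set 2 and 0.32 within set 1. Their cross-set median was -0.01. No gene of them passed the limma test, which called 0.0872% of all genes. Of the 19, 2 higher and 1 lower had an unadjusted p under 0.05, against 14.2% of all genes. After Cdkn1a, the largest positive differences were 0.62 for Cd82, a tetraspanin, and 0.61 for Polk, a DNA polymerase that copies past lesions. In the other direction Ckap2, a spindle protein, differed by -0.71, Ddit4, an inhibitor of mTORC1 signalling, by -0.21 and Pidd1, a death domain scaffold, by -0.16. Cd82 read 8.55 (set 2) and 8.76 (set 1) in cKO, against 7.75 (set 2) and 8.32 (set 1) in WT, without overlap. Bax was among the 4 listed targets with no named probe set.

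**Figure D3:**
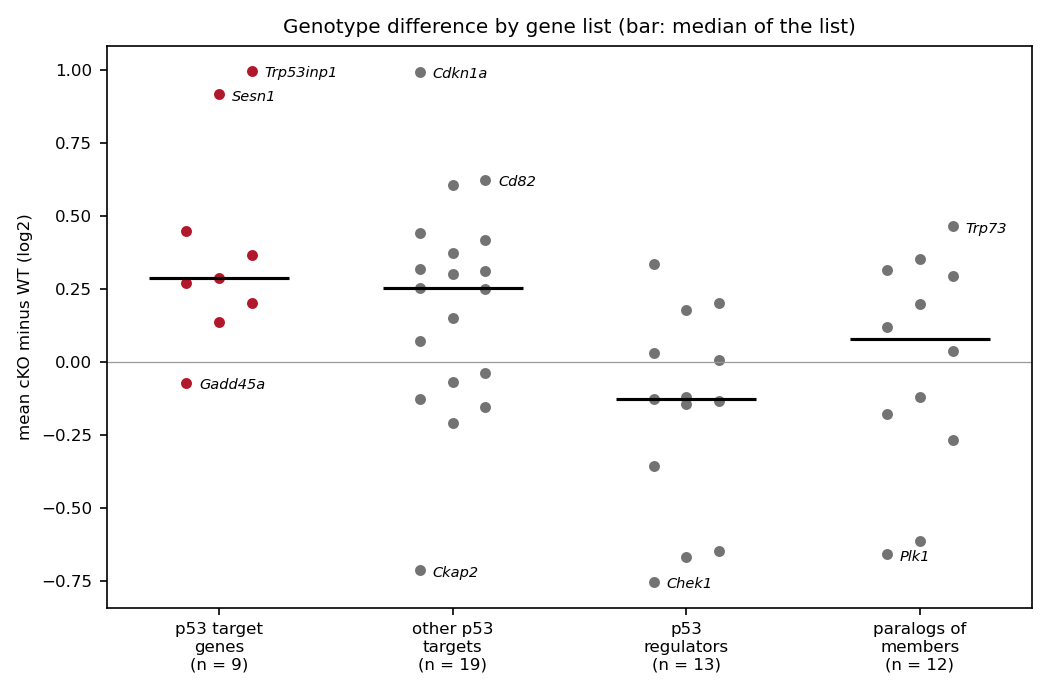
Mean difference between cKO and WT in log2 units for each tested gene of 4 lists: the measured p53 target genes of the report (red), further p53 targets, p53 regulators and paralogs of the members (grey), with a bar at each list's median. Sesn1 and Trp53inp1 stand above the other members, Cdkn1a stands at the same height among further targets, and the 4 lists overlap widely.

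Of 16 p53 regulators, 14 had a named probe set and 13 were tested. Of these 13, 3 read higher in cKO within both sets, 5 lower and 5 in opposite directions. The shares of all genes were 35.8%, 27.9% and 36%. The median of the 13 was -0.13, with -0.33 within set 2 and 0.08 within set 1. The cross-set median was 0.03. The lowest were the checkpoint kinase genes Chek1 at -0.75, Atr at -0.67 and Atm at -0.65, which transmit DNA damage to p53. Chek1 read 7.84 (set 2) and 8.36 (set 1) in cKO, against 9.04 (set 2) and 8.66 (set 1) in WT, with both cKO arrays below both WT arrays. Atr read 7.97 and Atm 8.45 on the WT set 2 array, the highest of the 4 for each, and their cross-set differences were -0.15 and 0.02. The highest were Ppm1d, a phosphatase that p53 induces and that shuts the damage response off, at 0.34, the ubiquitin ligase gene Rchy1 at 0.20 and the kinase gene Hipk2 at 0.18. Mdm4, the Mdm2 partner that masks p53, read 7.50 (set 2) and 7.57 (set 1) in cKO, against 8.13 (set 2) and 7.18 (set 1) in WT, a mean difference of -0.12. No regulator passed limma's test, which called 0.0872% of all genes, and 1 had an unadjusted p under 0.05, against 14.2% of all genes.

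Of 12 tested paralogs of the members, 4 read higher in cKO within both sets, 4 lower and 4 in opposite directions. The shares of all genes were 35.8%, 27.9% and 36%. The median of the 12 was 0.08. None of them passed the limma test, which called 0.0872% of all genes. Of the 12, 2 had an unadjusted p under 0.05, both lower, against 14.2% of all genes in either direction. Sesn3, another sestrin gene, which FoxO factors also induce, read 8.14 (set 2) and 8.32 (set 1) in cKO, against 8.58 (set 2) and 8.42 (set 1) in WT, a difference of -0.27. The polo-like kinase genes Plk1 and Plk4 differed by -0.66 and -0.61, and Plk3 by 0.29, where Plk2 differed by 0.20. Gadd45g, Gadd45b and Btg1 differed by 0.35, 0.32 and 0.20, Ccng2 by -0.18 and Trp53inp2 by 0.04. Of the p53 relatives, Trp73 differed by 0.46, and Trp63, the regulator of epidermal stem cells, read 12.32 (set 2) and 12.50 (set 1) in cKO, against 12.34 (set 2) and 12.24 (set 1) in WT. The difference between a member and its paralog was not tested.

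Profiles most like those of the 2 members whose levels spanned at least 1 log2 unit were sought by the root mean square difference of centred log2 levels over the 4 arrays. With 4 arrays this is a description and many genes are close. For Sesn1 the nearest genes were Tnfrsf4 at 0.053, which encodes the receptor OX40, Acsbg1 at 0.067, an acyl-CoA synthetase gene, and Smpdl3a at 0.070, a phosphodiesterase gene. Tnfrsf4 differed by 0.76 within set 2 and 0.88 within set 1. For Trp53inp1 the nearest were Csgalnact1 at 0.082, a gene of chondroitin sulfate synthesis, Tspan8 at 0.091, a tetraspanin gene, and Tnfrsf11b at 0.14, which encodes osteoprotegerin. Csgalnact1 differed by 0.74 within set 2 and 1.32 within set 1.

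The comparison of set 2 with set 1 asked which genes differ between the samples labelled activated and those labelled quiescent. limma called 0 of 8031 genes, with 230 (2.86%) at an unadjusted p under 0.05, and with the genotype as a block it called 1 gene (0.0125%). No member passed (limma adjusted p = 0.999 for each of the 9 genes) and 0 of the 9 had an unadjusted p under 0.05. Btg2 had the largest difference among members, at 0.48 (SE 0.21, 95% interval -0.06 to 1.02), with both set 2 arrays above both set 1 arrays. It was 0.35 in cKO and 0.61 in WT, and the second Btg2 probe set gave 0.13 in cKO and 0.28 in WT, again without overlap. Gadd45a, at 0.27, and the dimmer Mdm2 probe set, at 0.46, were the other probe sets with both set 2 arrays above both set 1 arrays. These were 4 of 17, against 14.6% of all probe sets. Counted by gene they were 2 of 9, against 11.1% of all genes.

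In the other direction 3 of 17 probe sets had both set 2 arrays below both set 1 arrays, against 17.3% of all probe sets, or 2 of 9 genes, against 19.5% of all genes. They were the brighter Sesn2 probe set at -0.37, one of Ccng1 at -0.50 and that of Plk2 at -0.20. For Plk2 the cKO set 2 and WT set 1 arrays were tied to the printed digits, at a linear intensity of 1496 each, and without it the counts are 2 of 17 probe sets and 1 of 9 genes. The second Sesn2 probe set gave -0.01. The other Ccng1 probe sets gave -0.37 and 0.30, so the probe sets of Ccng1 differed in sign. Sesn1 and Trp53inp1, the members with the largest genotype differences, differed between the sets by 0.17 and 0.35. For Trp53inp1 this was -0.03 in cKO and 0.73 in WT.

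Markers of the sorted cells and of other cells were read on the same arrays, and not all of them moved with genotype. Of 9 bulge markers, Tbx1 included, 3 read higher and 2 lower in cKO within both sets, and 4 had opposite signs in the sets. Krt15, a bulge keratin, differed by 0.48 within set 2 and 0.54 within set 1, and Lhx2, a bulge transcription factor, by -0.38 and -0.52. Basal keratinocyte markers summed to 41239 (set 2) and 41637 (set 1) in cKO, against 32869 (set 2) and 38516 (set 1) in WT. The hemidesmosome genes Col17a1 and Itgb4, 2 of the 4 basal markers, differed by 0.70 and 0.86 within set 2 and by 0.93 and 0.62 within set 1. The other basal markers, the keratin genes Krt5 and Krt14, differed by 0.27 and 0.22 within set 2 and by -0.12 and -0.03 within set 1. All 6 endothelial markers read lower in cKO within both sets, against 27.9% of all genes. Their summed linear intensity was 91.6 to 99.5 in cKO, against 1567 to 1706 in WT. In WT the brightest were Fabp4, at 10.42 (set 2) and 10.13 (set 1), and Plvap, at 7.78 (set 2) and 8.29 (set 1). These 2 were the only ones bright enough to test, and limma called both (adjusted p = 0.0031 and 0.0065). All 6 endothelial markers lay below the dim limit on both cKO arrays, and Pecam1, Kdr and Tie1 on all 4 arrays. Suprabasal keratinocyte markers summed to 24929 (set 2) and 22191 (set 1) in cKO, against 6920 (set 2) and 20283 (set 1) in WT, with 4 of 5 higher in cKO within both sets. Of 7 immune markers 6 lay below the dim limit on all arrays, Cd74 being the exception, and the sum was 198.3 to 234.6 in cKO, against 158.2 to 214.3 in WT. Fibroblast markers summed to 271.0 to 298.1 in cKO, against 299.7 to 348.0 in WT, and 4 of 6 were below the limit throughout. Melanocyte markers summed to 222.5 (set 2) and 161.9 (set 1) in cKO, against 206.5 (set 2) and 158.3 (set 1) in WT. These sums went with the set more than with genotype, and Tyr and Tyrp1 were below the limit throughout. The part of these cells in the Sesn1, Trp53inp1 and Cdkn1a values was not tested.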

How the data were processed

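The arrays were Affymetrix, hybridised with biotinylated cRNA from 2 µg of total RNA, per the labels' protocols. Values for 22690 probe sets were deposited as intensity, and the submitters' processing notes name RMA without settings. The intensity values deposited by the authors ran from 5.29 to 25561, so they were read as linear, and log2 was taken. Scanner files and scan dates were not used here. Of the probe sets, 20380 had 1 gene symbol in the platform annotation, 691 several and 1555 none, and 64 were controls. A RefSeq gene table (GRCm38.p6) changed 0 symbols. A gene was read from the brightest of its probe sets by mean, and genes under percentile 40 (log2 5.40, linear 42.2), Xist and Y-linked genes were dropped, which left 8031. All 9 measured members and their 17 probe sets passed by their mean over all arrays.

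limma 3.58.1 (R 4.3.3) was fitted to all 4 arrays without a covariate, once by genotype and once by set, with Benjamini-Hochberg adjustment at 0.05. Other probe sets of a gene were tested in a fit of each probe set on its own. Within-set values compare 1 array with 1 array and carry no test. The fits were tested on simulated data. Members and lists were chosen with earlier results of these data known. Named were all members, and from the further lists the genes with a 1.5-fold difference of the same direction within both sets, up to 3 per direction with the largest mean difference, and Cdkn1a, Mdm4, Trp63 and Bax. The tested paralogs that this rule did not pick, Plk3, Btg1, Ccng2 and Trp53inp2, were given as well. The set number was read as pairing the arrays, because the descriptions give 1 state per set. Across genes, the deviations of arrays sharing a set number correlated with r = 0.192. Alternatives were other filters, probe set rules, scalings, a pseudocount of 16, a variance trend with robust fitting, the blocks and leaving out each array. With so few arrays, all values are imprecise.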

Additional observations from a re-analysis of the deposited data

Results flagged for a closer look

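Differences between cKO and WT had opposite signs in the sets for 4 of the 17 member probe sets. The same held for 4 genes that the naming rule picked from the further lists. Whether the sets differed was not tested, since a set has 1 array per genotype. Counted by gene, opposite signs occurred in 2 of the 9 members, against 36.0% of all genes tested. The share over all probe sets was not counted. The Ccng1 probe sets gave -0.08 and -0.25 in set 2, against 0.98 and 0.69 in set 1, so that the effect in set 2 minus that in set 1 was -1.06 and -0.94. Gadd45a gave -0.21 in set 2 and 0.07 in set 1, a gap of -0.28, and the dimmer Mdm2 probe set gave 0.20 and -0.06, a gap of 0.26. Polk gave -0.02 in set 2 and 1.23 in set 1, a gap of -1.25. Mdm4 gave -0.63 and 0.39, a gap of -1.02, and Gadd45g -0.07 and 0.77, a gap of -0.84. Trp63 gave -0.03 and 0.27, a gap of -0.29.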

How the results depend on the processing

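No member was called under any of 13 alternatives in either comparison, and the lowest limma adjusted p over them was 0.0683 between genotypes, for Sesn1 with the set as a replicate block, and 0.43 between sets. Over the alternatives Sesn1 differed between genotypes by 0.64 to 1.01 and Trp53inp1 by 0.63 to 1.36, always higher in cKO. Of 116 member values between genotypes 2 changed sign. With each array left out in turn, Btg2 ran from -0.039 (without WT set 1) to 0.58 and Gadd45a from -0.28 to 0.13 (without WT set 2), and without a change of sign Ccng1 ran from 0.00029 to 0.89, Sesn2 from 0.059 to 0.67, Plk2 from 0.028 to 0.38, Mdm2 from 0.029 to 0.24 and Perp from 0.14 to 0.44. Of 116 values between sets 6 changed sign, also with an array left out: Ccng1 ran from -0.85 to 0.12 (without cKO set 1), Mdm2 from -0.016 (without WT set 1) to 0.23, Trp53inp1 from -0.34 (without WT set 1) to 1.04, Sesn1 from -0.29 (without WT set 1; -0.28 without cKO set 2) to 0.64 and Perp from -0.39 to 0.0041 (without WT set 2). The count of all genes called between genotypes was 7, and was 0 with the percentile 60 filter, 28 with a variance trend and robust fitting, 83 with the set as a replicate block and 2 to 16 with an array left out (2 without WT set 2, 16 without cKO set 2). Between sets it was 0, and 1 with the genotype as a block. The replicate block changed no call on a member. The count of members at least 1.5-fold different within both sets was 2, and 1 with probe sets averaged. The causes were not tested. Leaving out an array leaves a group with a lone sample, which is assumed to vary like the other group.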
